A study of Mus musculus with 8 samples.

Results

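The 0.5 µM list holds the open chromatin regions recorded for the mouse hepatoma line Hepa-1c1c7 after 72 h in 0.5 µM potassium chromate, set against untreated cells of the same line. Its members are all 11130 regions whose name pairs the 0.5 µM libraries with the 0 µM libraries, out of 41425 regions in the 3 lists of the series. They were found by ATAC-seq, in which the Tn5 transposase inserts adapters into DNA that nucleosomes and other proteins leave bare. Each of the 4 groups (untreated, 0.1, 0.5 and 1 µM chromate, each for 72 h) had 2 libraries, 8 in all, grown in the same medium, and nothing in the labels says whether libraries of a group came from separate cultures. The same untreated libraries are named as control in every list, and the 1 µM libraries carry the prefix N503 where all others carry N502, so this prefix and the 1 µM dose cannot be told apart. The line is a tumour line with no other liver cell, and in bulk libraries a change in every cell cannot be told apart from a larger change in some of them.

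Each dose had 1 list and no value per library, so no difference below has a replicate error, and none was tested. The depth of each library is unknown here, although sequencing to about 75 M read pairs was named in the labels. Intervals in brackets are exact (Clopper-Pearson) 95% binomial intervals, which cover counting error only. The sources used here do not say how the control entered the calls, so a listed region is an open region recorded for the treated cells and is not shown to be more open than in the control. A site with no region is likewise not shown to be closed. Regions were ranked by the deposited score, 1 being the highest, with ties broken by width. At 0.5 µM the score took only 110 distinct values over 11130 regions, so width set the order among many of them. These ranks are weak, because the same site often held very different ranks in the 3 lists.

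Hexavalent chromium enters cells on the anion carriers that take up sulfate, because chromate has a similar shape, and it is reduced inside the cell to forms that bind DNA and protein. The stress pathways that answer metals, oxidants and DNA damage act through transcription factors such as MTF1, NRF2, AP-1 and p53. A promoter is the stretch of DNA around a gene's start where RNA polymerase II assembles. In mammals most promoters of housekeeping genes lie in CpG islands, which are rich in C followed by G and are open in nearly every cell type. CTCF is a zinc finger protein that binds promoters and other sites and anchors chromatin loops together with cohesin, and the title of the series asks about CTCF sites in promoters.

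The promoters under the 6 highest-ranked promoter regions are shown first, since they are the sites that lead the list. Each line gives the 150 bases before the annotated start, 5′ to 3′ in the direction of the gene, from RefSeq windows of GRCm38.p6, the assembly that mm10 corresponds to. Capitals mark the GC box bound by SP1 (GGGCGG), the CCAAT box bound by NF-Y (CCAAT), the ETS site (CCGGAAG), the NRF1 site, the cyclic AMP response element and the YY1 site, on either strand, where those letters occur.
Kyat3: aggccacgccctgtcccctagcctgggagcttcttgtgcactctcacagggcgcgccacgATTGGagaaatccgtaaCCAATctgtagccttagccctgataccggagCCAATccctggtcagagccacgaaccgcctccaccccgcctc
Pja2: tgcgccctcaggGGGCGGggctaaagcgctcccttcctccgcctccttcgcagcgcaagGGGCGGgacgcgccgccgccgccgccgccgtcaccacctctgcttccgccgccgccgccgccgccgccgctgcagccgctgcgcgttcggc
Zfp120: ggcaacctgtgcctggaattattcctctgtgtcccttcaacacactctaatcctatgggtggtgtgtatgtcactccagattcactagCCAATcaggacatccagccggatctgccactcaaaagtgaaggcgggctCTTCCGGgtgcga
Oxct1: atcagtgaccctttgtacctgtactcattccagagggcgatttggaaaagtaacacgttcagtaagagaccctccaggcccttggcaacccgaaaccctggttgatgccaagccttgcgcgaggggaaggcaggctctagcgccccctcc
Rpl37: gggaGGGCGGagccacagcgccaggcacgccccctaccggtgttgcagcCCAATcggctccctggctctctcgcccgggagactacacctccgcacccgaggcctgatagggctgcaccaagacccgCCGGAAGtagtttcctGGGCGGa
Ppp2r1a: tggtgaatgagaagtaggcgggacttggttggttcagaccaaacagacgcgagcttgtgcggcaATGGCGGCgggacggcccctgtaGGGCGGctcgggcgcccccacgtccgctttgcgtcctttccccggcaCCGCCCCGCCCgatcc
These bases lie at chr3:142700898-142701047 (Kyat3, plus strand), chr17:64331884-64332033 (Pja2, minus strand), chr2:150136679-150136828 (Zfp120, minus strand), chr15:4026278-4026427 (Oxct1, plus strand), chr15:5116463-5116612 (Rpl37, plus strand) and chr17:20945304-20945453 (Ppp2r1a, plus strand).

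The 6 promoters had little in common in their letters. Kyat3 held 3 CCAAT boxes and no GC box, Pja2 held 2 GC boxes and no CCAAT box, and Oxct1 held none of the marked sites in its 150 bases. The full windows of 300 bp ranged from 7 CpG pairs at Zfp120 to 37 at Pja2, and each of the 6 was covered over all 300 bp by its region. A match is only a run of letters and is not shown to be bound.

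Kyat3, a kynurenine aminotransferase, had the promoter region of best rank (chr3:142700432-142701428, 997 bp, rank 3). Next came Pja2, a ubiquitin ligase (chr17:64331671-64332603, rank 5), and Zfp120, a zinc finger gene (chr2:150136110-150137074, rank 7). The region over the start of Oxct1, which starts the breakdown of ketone bodies, also covered the start of the neighbouring gene BC037032 (chr15:4026149-4028256, 2108 bp, rank 8). Behind these stood Rpl37, a protein of the large ribosomal subunit (chr15:5115921-5117127, rank 13), and Ppp2r1a, the scaffold of protein phosphatase 2A (chr17:20944894-20945950, rank 16). The remaining 6 of the 12 highest were Fbxo4 (rank 18), Opn3 with Gm39707 (rank 22), Drosha, the nuclease that releases miRNA hairpins, with 6030458C11Rik (rank 23), Cmbl (rank 28), Hmgcs1 (rank 31) and Zfp760 (rank 32). Of these 12 promoter regions 5 lay on chromosome 15 and 3 on chromosome 17, which held 1693 and 744 of all 11130 regions.

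The same 12 sites were listed at both other doses, at ranks that could be near or far. Ppp2r1a stood at rank 5 at 0.1 µM and rank 8 at 1 µM, and Hmgcs1 at ranks 38 and 22. Kyat3 stood at rank 9433 at 0.1 µM and rank 12 at 1 µM, Rpl37 at 10542 and 7, and Drosha at 16 and 14202. Pja2 and Opn3 stood low in both, at ranks 4503 and 6534 and at ranks 4965 and 8046. With 1 list per dose these gaps have no error, and they are not read as differences between doses.

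Away from promoters, the regions of best rank inside genes and at no gene end lay in Pigk (chr3:152813557-152814480, rank 6), Aida (rank 11), Retreg1 (rank 19), Sybu (rank 20), Camk2d (rank 21) and Cmbl (rank 28). The Cmbl region appears in both sets because it covers a start that lies within the outer bounds of the gene. Between genes the leading region was chr15:16403749-16405015 (rank 2), 324.2 kb from the nearest protein-coding gene, the cadherin gene Cdh9. It was followed by regions 104.6 kb from Zfat (rank 12), 93.6 kb from Basp1 (rank 14), 55.6 kb from Trio (rank 24), 3.07 kb from 2310061N02Rik (rank 25) and 51.4 kb from Sema6d (rank 27). Most of the leading sites between genes, 4 of 6, lay on chromosome 15. That chromosome held 17.1% of all regions among the first 1113 ranks and 20.4% among the last 1113 ranks.

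The widest regions were not the highest ranked. The widest of all, 2718 bp near an end of Alyref2 (chr1:171501354-171504071), stood at rank 1262, and the next, 2544 bp at Tagln2, which encodes the actin-binding protein transgelin-2, at rank 1472. A region of 2524 bp at LOC108167694 and 4930526I15Rik stood at rank 260, one of 2346 bp at Selenop, the selenium carrier of plasma, at rank 3146, and one of 2186 bp in Gm35018 at rank 7515.

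The 11130 regions covered 4.34 Mb, with a median width of 324 bp (quartiles 244 to 454, range 199 to 2718). At 0.1 µM 14401 regions covered 6.04 Mb with a median of 339 bp, and at 1 µM 15894 covered 6.91 Mb with a median of 353 bp. Regions of 1000 bp or more made up 2.32% at 0.5 µM (258 regions), 3.74% at 0.1 µM and 4.17% at 1 µM. The 0.5 µM list was thus the shortest, and the smallest of the 3 in median width. The median gap between neighbouring regions was 51.4 kb at 0.5 µM, against 44.2 and 39.1 kb at 0.1 and 1 µM.

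By the midpoint of each region, 34.0% (33.2 to 34.9) lay no more than 1 kb from the outer end of some protein-coding gene, while 31.0% lay further inside genes and 35.0% between them. The windows around gene ends make up 2.98% of the chromosomes, so these sites took a far larger part of the list than of the genome. Starts, including those inside the outer bounds of a gene, were then counted apart from far ends. Of the 10636 regions on chromosomes with promoter windows, 3357 (31.6%, 30.7 to 32.5) lay within 1 kb of an annotated start of a protein-coding gene, where 1.45% of the genome lies. Only 87 (0.818%) lay at the far end of a gene and at no start, and 575 (5.41%) lay at an end of a gene without a promoter window. The share at starts was 26.1% at 0.1 µM and 27.4% at 1 µM.

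Regions sat tightly on the start. Within 0.25 kb of a start lay 24.8% of the regions, within 0.5 kb 28.6%, within 2.5 kb 34.3%, within 10 kb 41.2% and within 100 kb 73.1%. A further 2864 regions (26.9%) lay more than 100 kb from any start. Among those within 1 kb, 2006 midpoints fell before the start and 1335 after it, with a median of -37.0 bp (quartiles -131 to 64.0). Cover by the list peaked 50 bp before the start, where 14.0% of starts of protein-coding genes were covered, and fell to 0.285% and 0.176% at 3 kb on either side. The peak was 15.1% at 0.1 µM, also 50 bp before the start, and 18% at 1 µM, 100 bp before it.

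**Figure D1:**
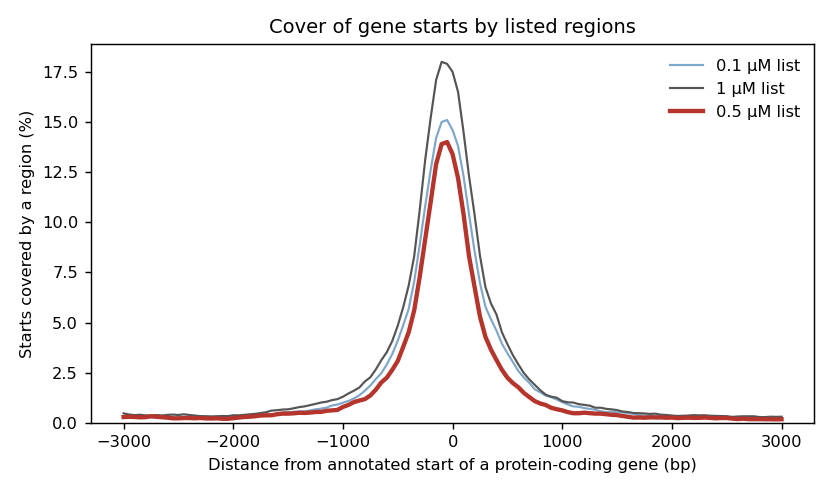
Percent of annotated starts of protein-coding genes covered by a listed region (vertical axis) against the distance from the start in bp (horizontal axis, negative before the start), with 1 line for each dose. The 0.5 µM line peaks at 14.0% just before the start, below the lines of 0.1 µM (15.1%) and 1 µM (18%), and all 3 fall to under 0.5% at 3 kb.

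The share at starts followed rank and width. Among the first 1113 ranks 41.9% of regions lay at a start, and among the last 1113 ranks 24.3%. Over the same span the median width went from 606 to 240 bp, and the share between genes from 29.5% to 40.6%. Ties in score were ordered by width, so the fall in width is partly built into the ranks. By width alone the widest 1113 regions (652 bp or more) lay at a start in 49.0% of cases and the narrowest 1113 (206 bp or less) in 20.1%. Regions of high rank and wide regions were thus each found more often at starts, but rank and width are not independent orders.

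A protein-coding gene was counted as having a region where one came within 1 kb of either of its ends. At 0.5 µM 4055 of 21631 genes had one (18.7%), at 0.1 µM 4216 (19.5%) and at 1 µM 4971 (23.0%). These percentages are the background for every gene group below. By promoter windows, which run from 250 bases before to 50 after a start, 3979 of 32585 were overlapped at 0.5 µM (12.2%), 4269 at 0.1 µM (13.1%) and 5027 at 1 µM (15.4%). Windows of protein-coding genes were overlapped in 16.4% of cases (3446 of 21012) and those of lncRNA genes in 4.61% (533 of 11573). Counted by gene, 3082 of 17274 protein-coding genes with a window were overlapped (17.8%), against 18.9% at 0.1 µM and 22.3% at 1 µM. The genes with a region were longer than most, with a median of 24.7 kb against 17.3 kb for all protein-coding genes.

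The overlapped promoters were rich in CpG. Their median was 23.0 CpG pairs in 300 bp and 62.0% G or C, against 6 pairs and 51.7% in the promoters that were not overlapped. Of the 12290 windows with 0 to 4 CpG pairs 1.24% were overlapped, and the share was 4.68% at 5 to 9 pairs, 19.3% at 10 to 19, 30.0% at 20 to 29 and 26.5% at 30 or more. The share was thus highest at 20 to 29 pairs. The gap between protein-coding and lncRNA promoters was small where CpG was high. At 20 to 29 pairs 30.2% of protein-coding and 27.5% of lncRNA windows were overlapped, and at 30 or more 26.5% and 26.8%, while at 10 to 19 pairs the shares were 22.1% and 8.67%.

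**Figure D2:**
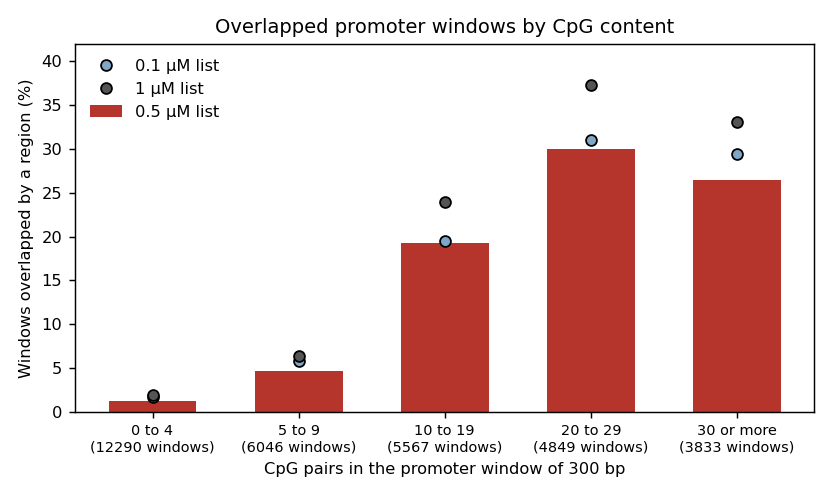
Percent of promoter windows overlapped by a region (vertical axis) in 5 bands of CpG pairs per 300 bp (horizontal axis, with the number of windows in each), with bars for 0.5 µM and points for 0.1 and 1 µM. The bars rise from 1.24% to 30.0% at 20 to 29 pairs and stand at 26.5% at 30 or more, and in each band the 1 µM point lies highest.

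Motifs searched in the windows on both strands mostly followed this base composition. The GC box occurred in 69.9% of overlapped windows and 35.9% of all windows, the ETS site in 21.7% against 8.92%, and the NRF1 site (GCGCANGCG) in 14.8% against 6.27%. The YY1 site (ATGGCGGC) occurred in 5.33% against 2.25%, and the core bound by the AHR (GCGTG) in 55.3% against 32.6%. The TATA box (TATAAA) went the other way, in 4.67% of overlapped and 13.7% of all windows. So did the AP-1 site (TGANTCA), at 5.50% against 7.85%, and the liver motifs C/EBP (TTGCNNAA), at 7.41% against 10.9%, FOXA (TGTTTAC), at 2.76% against 3.67%, and HNF4 (CAAAGTCCA), at 0.176% against 0.479%. All 8 motifs whose letters contain CpG were more frequent in overlapped windows than in all windows, and of the other 10 motifs 6 were less frequent.

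Within the band of 20 to 29 CpG pairs, where 30.0% of all windows were overlapped, the motifs could be read at like CpG content. Windows can share a region, since 3078 regions gave all 3979 overlapped windows, so the intervals are likely too narrow and are not a test. Windows with the cyclic AMP response element (TGACGTCA) were overlapped in 41.5% of cases (34.6 to 48.7, 200 windows). The CCAAT box gave 37.7% (35.5 to 40.0) and the ETS site 37.1% (34.2 to 40.1). The GC box, so frequent over all windows, gave 30.7%, close to the band as a whole, and the AHR core 31.3%. The run TGCNCNC, searched for the metal response element of MTF1, gave 26.8% (25.3 to 28.4), and the TATA box 19.9% (14.9 to 25.8). The run TGANNNNGC, searched for the antioxidant response element of NRF2, gave 31.8%. Both runs are loose and occurred in 65.3% and 42.8% of the windows of this band. A match to either therefore need not be a site of MTF1 or NRF2.

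**Figure D3:**
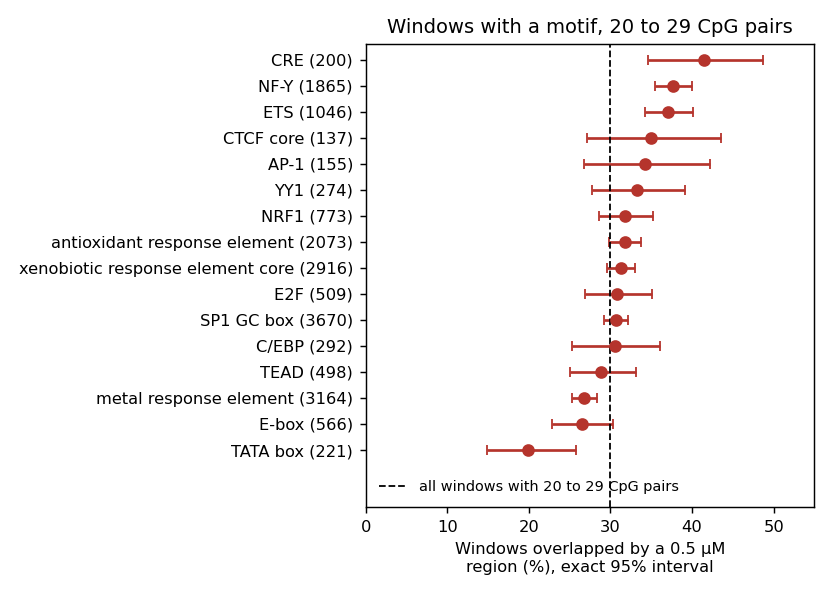
Percent of windows holding each motif that were overlapped by a 0.5 µM region (horizontal axis, exact 95% binomial intervals as bars), for windows with 20 to 29 CpG pairs and motifs (vertical axis) in at least 100 of them, whose number stands in brackets. The dashed line marks the 30.0% of all such windows, and the intervals of CRE, NF-Y and ETS lie above it while those of the metal response element and the TATA box lie below. Windows can share a region, so the intervals are likely too narrow and are not a test.

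Promoters poor in CpG were few in the list. Of the 153 overlapped windows with 0 to 4 CpG pairs, 36 (23.5%) held an AP-1 site, against 11.7% of all 12290 windows of that band. AP-1 is the dimer of JUN and FOS proteins that opens many regulatory sites in growing and stressed cells. The GC box stood at 11.1% against 4.72%, and the TATA box at 16.3% against 23.4%. The antioxidant response element stood at 41.8% against 38.6% and the metal response element at 30.7% against 36.2%. These counts are small and were not tested.

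The CTCF core was searched as CCA, any 2 bases, AG, any 2 bases and GGC. It occurred in 127 of 3979 overlapped windows (3.19%) and in 796 of all 32585 windows (2.44%). Within 20 to 29 CpG pairs 48 of 137 windows with the core were overlapped (35.0%, 27.1 to 43.6), an interval that holds the 30.0% of the band. In 112 of the 127 windows the match lay wholly before the start. Most of each window lies before the start by construction, so this count does not show that matches favour that side. The core leaves some bases free, so a match need not be a site of CTCF. The 4 overlapped windows of best rank with a match wholly before the start are shown because the title of the series asks about CTCF sites. Each line is 60 bases around the match, 5′ to 3′ in the direction of the gene, from the same RefSeq windows, with the match in capitals.
Cggbp1: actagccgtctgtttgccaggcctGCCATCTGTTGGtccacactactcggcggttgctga
Gzf1: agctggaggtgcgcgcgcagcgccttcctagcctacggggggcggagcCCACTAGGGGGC
Aim2: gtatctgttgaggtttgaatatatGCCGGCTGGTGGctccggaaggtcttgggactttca
Gm20753: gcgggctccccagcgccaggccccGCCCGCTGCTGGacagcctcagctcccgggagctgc
The match at Gzf1 reads as printed and the other 3 lie on the opposite strand, so that their capitals begin with GCC.

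Cggbp1, which encodes a protein that binds CGG repeats, held its match 78 bases before the start at chr16:64851899-64851958, under a region of rank 64 that stood at ranks 32 and 14 at 0.1 and 1 µM. Gzf1, a zinc finger repressor, held it 12 bases before the start at chr2:148681060-148681119, under a region of rank 85 (ranks 211 and 74). Aim2, a sensor of DNA in the cytosol, held it 180 bases before the start at chr1:173420400-173420459, under a region of rank 111 (ranks 54 and 96). Gm20753 held it 208 bases before the start at chr1:106171697-106171756, on the minus strand, under a region of rank 116 (ranks 33 and 106). The sites of all 4 were among the first 211 ranks of every list. The Ctcf gene itself had no region inside it or within 10 kb at 0.5 µM.

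Gene groups were then read against the 18.7% of all protein-coding genes. Of 58 groups 43 lay above that share, and 2 had no member with a region. The groups were chosen with earlier results of these data known, and this background holds promoters of every CpG content. Windows of protein-coding genes were overlapped in 1.34% of cases at 0 to 4 CpG pairs and in 30.2% at 20 to 29. Whether any group differs from other genes of like CpG content was not tested. The median rank of the best region was 4485 over all 4055 genes with one, and 1386 of them had it within the first 2782 ranks.

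Uptake of chromate is the first step. Of 17 genes for sulfate and other anion transport and activation, 5 had a region (29.4%), led by Papss1, which makes the activated form of sulfate (chr3:131564438-131564934, rank 467, midpoint 82 bp before the start). Slc13a1 and Slc26a2, both sulfate carriers, had regions of rank 2051 and 4117, and Slc26a8 one of rank 7324 that was listed at neither other dose. By promoter windows the group lay below the background, with 1 of 12 members overlapped (8.33%) against 17.8% of protein-coding genes with a window.

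Metal handling genes had a region in 14 of 30 cases (46.7%), against 18 of 30 at 0.1 µM and 17 of 30 at 1 µM. Aco1, the iron-sensing cytosolic aconitase, led with a region of 1109 bp over its start (chr4:40142736-40143844, rank 641). Slc30a1, the zinc exporter that MTF1 controls, had a region whose midpoint lay 69 bp after the start (chr1:191906598-191907103, rank 1203). Atp7b, the copper pump of hepatocytes, and Slc30a7, a zinc carrier, followed at ranks 1471 and 2305. The group's median rank of 3036 lay ahead of the 4485 over all genes with a region.

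The antioxidant genes answering to NRF2 had a region in 14 of 36 cases (38.9%), with 9 of 36 at 0.1 µM and 14 at 1 µM. Sod1, the copper and zinc superoxide dismutase (chr16:90220451-90221092, rank 1182), and Glrx, glutaredoxin (chr13:75839575-75840327, rank 1634), came first. Gclm, the modifier subunit of glutathione synthesis, and Nqo1, the quinone reductase, had regions at ranks 3858 and 5122. Their midpoints lay 8 bp after and 30 bp before the start. These were mostly low-ranked regions, with a median of 7192 and 2 of 14 within the first 2782 ranks, where 1386 of all 4055 genes stood. In the AHR group, which holds the receptor for dioxin and its targets, 8 of 23 had a region (34.8%), against 13.0% at 0.1 µM and 30.4% at 1 µM. Among its leading members were Nat2 (rank 718), Cyp1b1 (rank 4535) and Nqo1, which both groups hold. The Cyp1b1 site had no region at 0.1 µM and stood at rank 3319 at 1 µM.

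AP-1 and other immediate early genes had a region in 14 of 32 cases (43.8%). Klf10 (chr15:38299025-38299771, rank 453) and Atf3 (chr1:191183110-191183807, rank 456) led, both transcription factors that many stresses induce. Ccn1, a secreted matrix protein under YAP control, and Btg1, an inhibitor of growth, followed at ranks 951 and 1967. The Klf10 region lay inside the gene and stood at rank 14137 at 0.1 µM.

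Genes that keep proteins folded had high shares, although their ranks were mixed. Of 34 heat shock and chaperone genes 19 had a region (55.9%), led by Hspa13 (chr16:75766413-75767768, 1356 bp, rank 37), Hsph1 (chr5:149636073-149636964, rank 179), both of the HSP70 family in the wide sense, Dnajb4 (rank 340) and the chaperonin subunit Cct5 (rank 1476). Of 31 genes of the unfolded protein response, which answers misfolded protein in the endoplasmic reticulum, 17 had one (54.8%), against 38.7% at 0.1 µM and 58.1% at 1 µM. Edem3 and Sel1l, which both serve the removal of misfolded protein, held ranks 97 and 120, and Dnajc3 and Pdia3 ranks 302 and 2448. The group of amino acid carriers and tRNA synthetases had the highest share of all, 16 of 28 (57.1%). Tars, threonyl-tRNA synthetase, led it at rank 62 with a region whose midpoint lay 112 bp before the start (chr15:11399421-11400120). Median ranks were 4353, 5739 and 5401 for these groups in the order given, against 4485 over all genes with a region.

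DNA repair genes had a region in 24 of 48 cases, with 23 and 25 at 0.1 and 1 µM. Fancb of the Fanconi anaemia pathway (chrX:164980139-164980916, rank 79) and Xrcc4 of end joining (chr13:90089115-90089979, rank 180) led, ahead of Ercc5, a nuclease of excision repair (rank 528), and Brca2 of homologous recombination (rank 738). Of 34 p53 targets and damage signalling genes 11 had one (32.4%), against 13 at 0.1 µM and 17 at 1 µM. Rrm2b, the ribonucleotide reductase subunit that p53 induces (chr15:37960708-37961629, rank 109), Gadd45a (rank 461), Ccng1 (rank 867) and Aen (rank 2006) came first. Of 30 apoptosis genes 9 had one (30.0%), with Casp2 at rank 492 and Casp6 at rank 759.

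Genes of the cell cycle were likewise above the background. For mitosis and its checkpoint 18 of 32 had a region (56.2%), with Cenpf, a kinetochore protein, at rank 70 (chr1:189687942-189688478) and the checkpoint genes Mad2l1 and Bub3 at ranks 207 and 1053. The share was 53.1% at 0.1 µM and 68.8% at 1 µM. For DNA replication 17 of 40 had one (42.5%), against 18 and 24 at 0.1 and 1 µM, and its regions ranked well, with a median of 2038 against 6006 for mitosis. Mcm3 of the replicative helicase (rank 250), Rfc3 of the clamp loader (rank 285) and Rpa3 of the single-strand binding complex (rank 608) led. Kinesins, the motors of microtubules, had a region in 14 of 44 cases (31.8%).

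Of the CTCF, cohesin and condensin genes 12 of 29 had a region (41.4%, as at 0.1 µM, and 51.7% at 1 µM). Ncapg2 and Ncapd3 of condensin II stood at ranks 701 and 3373, Pds5b, a regulator of cohesin, at rank 822, and Smc3 of the cohesin ring at rank 2211 with none listed at 0.1 µM. Remodelling ATPases and their partners had a region in 20 of 39 cases (51.3%), led by Chd6 (rank 138) and Smarca2, which drives SWI/SNF remodelling (rank 269). Histone and DNA modifying enzymes, with 12 of 60, lay near the background, with Kdm4a at rank 2149 and Hdac2 at rank 2210. By promoter windows 13 of 51 of these were overlapped (25.5%), against 17.8% of protein-coding genes with a window. The lamina and nuclear body group stood at 7 of 24 (29.2%), in which Safb and Safb2 share 1 region between their starts (rank 2856).

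In metabolism the cholesterol and fatty acid group had 15 of 35 (42.9%). Hmgcs1, which feeds the mevalonate pathway (chr13:119689878-119690555, rank 31, midpoint 135 bp before the start), Hsd17b7 (rank 314) and Msmo1 (rank 435) led it. Glycolysis and the pentose phosphate pathway had 6 of 29 (20.7%), near the background, against 24.1% and 41.4% at 0.1 and 1 µM. By promoter windows this group lay above the background, with 8 of 27 overlapped (29.6%) against 17.8% of protein-coding genes with a window. Pgk1 alone ranked high there (chrX:106186757-106187109, rank 382). The respiratory chain and ATP synthase had 35 of 96 (36.5%, Cox7c at rank 115), mitochondrial ribosomal proteins 30 of 75 (40.0%, Mrpl50 at rank 147), and mitochondrial import 10 of 25 (40.0%, Timm10b at rank 959).

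Among the machines of gene expression the shares ran from 15.4% to 42.9%. Nuclear pore genes had 9 of 21 (42.9%), general transcription factors 14 of 40 (35.0%), splicing factors 23 of 66 (34.8%), translation initiation factors 19 of 55 (34.5%), Mediator subunits 9 of 30 (30.0%) and cytosolic ribosomal proteins 23 of 80 (28.8%). RNA polymerase II subunits had 2 of 13 (15.4%). The Mediator subunit Med30 had one of the highest regions of the list (chr15:52712030-52713172, rank 10), which stood at rank 6793 at 0.1 µM and rank 9 at 1 µM.

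Protein traffic and turnover were mixed. Coat proteins of COPI and COPII had 10 of 20, autophagy and lysosome genes 18 of 37 (48.6%), and Rab GTPases 23 of 59 (39.0%, Rab5b of early endosomes at rank 46). Ubiquitin conjugating enzymes had 9 of 37 (24.3%), proteasome subunits 11 of 48 (22.9%) and F-box genes 15 of 78 (19.2%). None of the 11 proteasome genes had a region within the first 2782 ranks, against 1386 of all 4055 genes with a region, and their median was 8602.

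Signalling groups lay between 19.4% and 41.7%. Insulin, mTOR and AMPK genes had 15 of 36 (41.7%), TGF-beta and BMP genes 13 of 35 (37.1%), NF-kappaB and inflammation genes 10 of 30 (33.3%), and hypoxia and circadian clock genes 7 of 23 each (30.4%). Hippo and YAP genes had 7 of 24 (29.2%) and Wnt genes 7 of 36 (19.4%). By promoter windows only TGF-beta and BMP genes among these groups lay below the 17.8% of protein-coding genes, with 4 of 26 (15.4%). Examples are Prkaa1, a catalytic subunit of AMPK (rank 1520), Smad4, the common mediator of TGF-beta signals (rank 1531), Ndrg1 of the hypoxia response (rank 374) and Lgr4, a receptor for R-spondins (rank 414).

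Large families spread over the whole range. Zinc finger genes with the symbol Zfp had a region in 132 of 397 cases (33.2%, 36.3% and 40.3% at 0.1 and 1 µM), with a median rank of 3012 and 62 of the 132 within the first 2782 ranks, against 1386 of all 4055. Zfp120 (rank 7), Zfp960 (rank 26), Zfp760 (rank 32) and Zfp386 (rank 57) led them. Solute carriers stood at the background, with 69 of 375 (18.4%). Cytochrome P450 genes had 6 of 99 (6.06%), and the first of these, at Cyp39a1, is a region that Slc25a27 shares (rank 628). Cadherins and protocadherins had 5 of 92 (5.43%), keratins 3 of 49 (6.12%), taste receptors 1 of 38 (2.63%), Hox genes 1 of 39 (2.56%, Hoxa10), olfactory receptors 3 of 1110 (0.270%) and vomeronasal receptors 1 of 355 (0.282%). The defensin list had 2 of 73 (2.74%), but it was drawn up by symbol and one of the 2, Def8, is not a defensin. The lowest shares among these families were thus those of the olfactory and vomeronasal receptors.

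Cell type markers were read last, but they cannot check the hepatocyte label, because a site with no region is not shown to be closed. Of 44 hepatocyte markers 6 had a region (13.6%, 11.4% and 22.7% at 0.1 and 1 µM), which is below the background, and Alb, Afp and Hnf4a, which encode albumin, alpha-fetoprotein and a master factor of hepatocytes, had none inside the gene or within 10 kb. Those with a region were led by Apoa2 (rank 1401), whose region it shares with Tomm40l, Foxa2, a pioneer factor of liver (rank 1468), the simple epithelial keratin Krt8 (rank 6317) and the bile acid receptor Nr1h4 (rank 6765). Nuclear receptors as a family had 6 of 46 (13.0%), led by Nr1d2 of the clock (rank 1137). None of 22 immune and none of 22 neuronal markers had a region, and of 22 stellate, fibroblast and endothelial markers only Dcn, decorin, did (rank 3966).

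**Figure D4:**
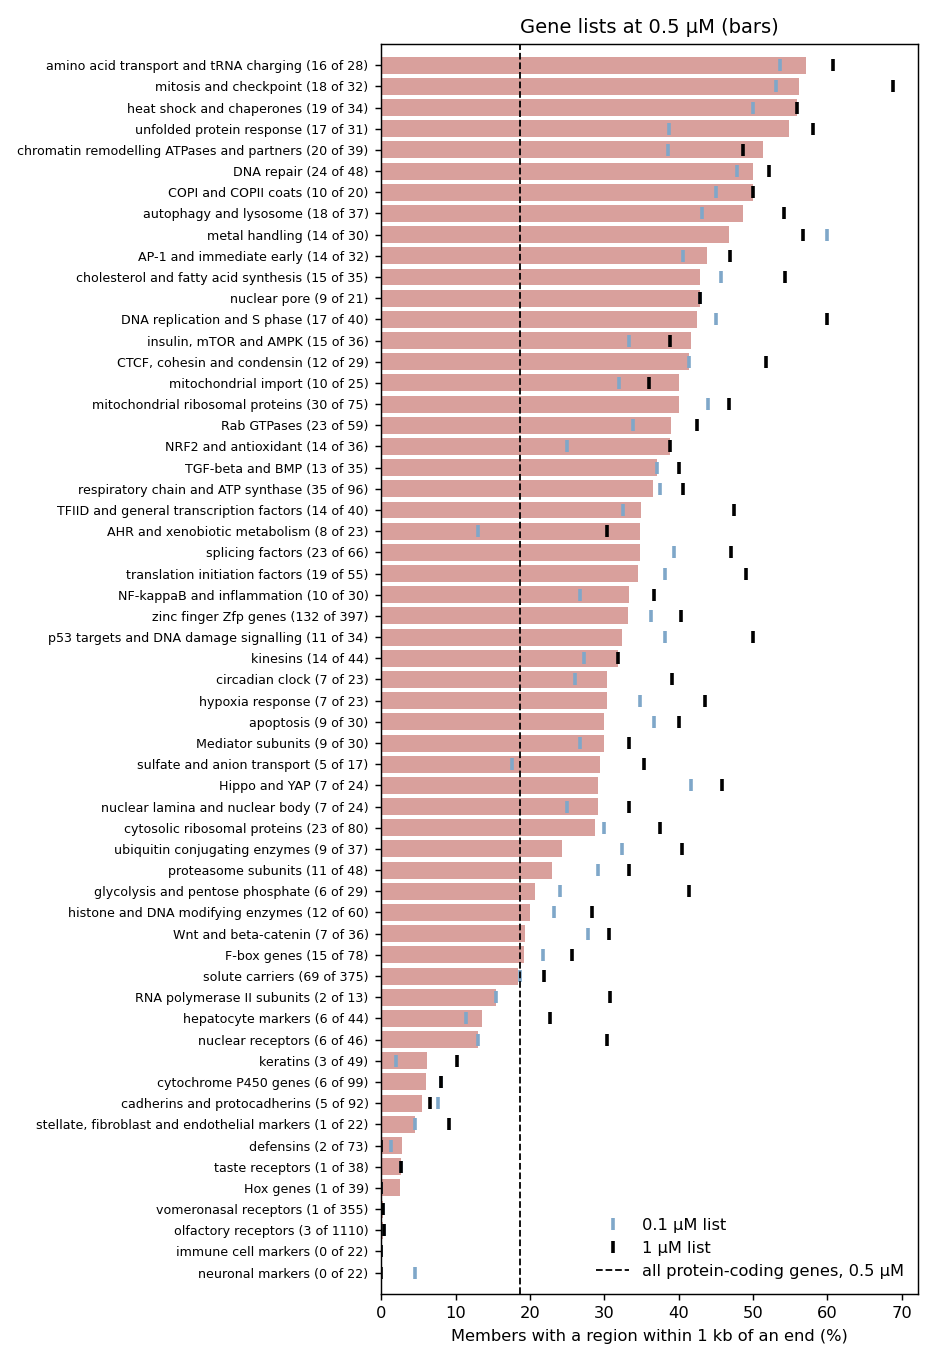
Percent of members with a region within 1 kb of an end (horizontal axis) for the 58 gene groups (vertical axis, with the count of members), as bars for 0.5 µM and ticks for 0.1 and 1 µM. The dashed line marks the 18.7% of all protein-coding genes at 0.5 µM, above which 43 bars end, and sensory receptors and the immune and neuronal markers stand at or near 0.

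The regions were spread unevenly over chromosomes. Chromosome 15 held 1693 regions (16.3 per Mb), and there only 15.4% of the regions lay at gene ends, the smallest share of any chromosome. Chromosome 17 followed with 744 (7.84 per Mb), and was the only chromosome with more regions at 0.5 µM than at 0.1 µM, where it held 714. That excess lay in a few dense stretches and was not a trait of the whole chromosome. The 500 kb from chr17:5500001 held 42 regions at 0.5 µM and 7 at 0.1 µM, and the 500 kb from chr17:5000001 held 37 and 14. Chromosome 1 held 1338 (6.85 per Mb), and its genes had a region most often, in 34.1% of cases against 31.2% on chromosome 15. The X chromosome was lowest in density, with 121 regions (0.709 per Mb), of which 55.4% lay at gene ends, and chromosome 14 next, with 144 (1.15 per Mb).

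**Figure D5:**
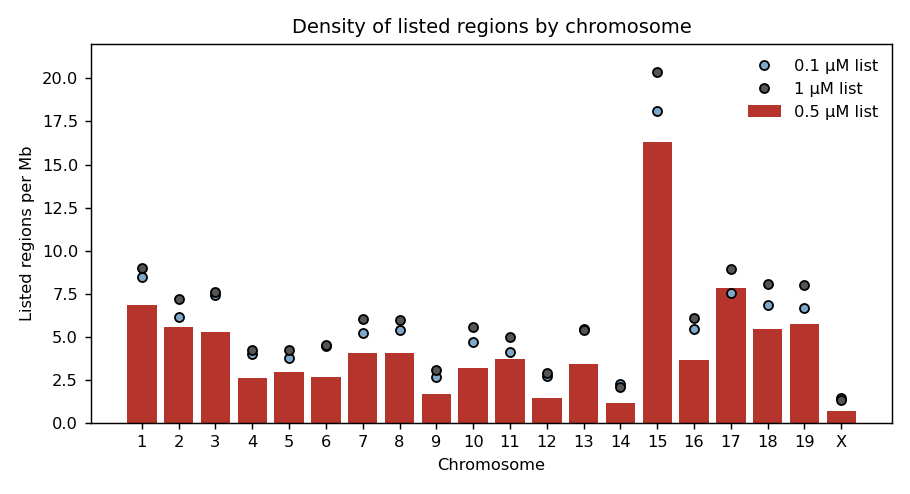
Listed regions per Mb (vertical axis) on each chromosome (horizontal axis), as bars for 0.5 µM and points for 0.1 and 1 µM. Chromosome 15 stands at 16.3 per Mb at 0.5 µM and the X at 0.709, and on chromosome 17 alone the 0.1 µM point lies below the bar.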

How the data were processed

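ATAC-seq libraries of 4 groups with 2 libraries each were made with Tn5 transposition for 30 minutes and 9 PCR cycles, per the labels' protocols. The submitters' processing notes name the tools Bowtie2, MACS2 and Picard and the genome build mm10, with no version and no role for each. The sources used here do not give the threshold, the use of the control, the Tn5 shift or any pooling of libraries. The authors deposited 1 list of regions per treated dose, with a whole-number score per region of at least 4 at 0.5 µM, whose scale is not stated. This deposited score was used only to rank. In the 0.5 µM list 342 numbers are missing from the running region names.

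Positions are 1-based mm10 coordinates. They were set against RefSeq tables of GRCm38.p6 with 21631 protein-coding genes and 32585 promoter windows of 300 bp on 20 chromosomes. The window table holds nothing for chromosome 18, where 494 of the regions lie, and 4357 protein-coding genes have no window. A gene had a region when one came within 1 kb of its outer ends, so a start inside the gene is not counted there. Overlap meant at least 1 bp. No value exists per library, so shares carry exact binomial 95% intervals and no test was made. Overlap and motif code was tested on simulated data, and the nearest-gene code was not part of that test. Python 3.11.15, pandas 2.3.3, numpy 2.4.6, scipy 1.17.1 and matplotlib 3.10.9 were used.

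The regions described, the 58 gene lists and the 18 motifs were chosen with earlier results of these data known. Of 1037 written list symbols 6 had no gene of their own. Named by rule were the 12 highest-ranked regions on a promoter window, the 6 highest inside and the 6 highest between genes, the 5 widest, up to 4 genes per list by rank (a few are not reported here), Ctcf, Alb, Afp and Hnf4a, up to 6 overlapped miRNAs, and the promoters of the 6 highest promoter regions and of 4 with the CTCF core. Alternatives were the higher-scored and the wider part of the list, other windows and overlaps, merged gaps and leaving out chromosome 15.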

Additional observations from a re-analysis of the deposited data

How the results depend on the processing

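The share of regions at gene ends, 34.0%, was 38.9% in the higher-scored 5565 regions, 42.1% in the wider 5565, 37.4% without chromosome 15, and 39.9% and 29.3% with windows of 2.5 and 0.5 kb. The share of protein-coding genes with a region, 18.7%, was 11.3% and 12.2% in the same shorter lists, 18.3% without chromosome 15, and 21.1% and 17.5% with the other windows. Overlapped promoter windows, 12.2%, came to 7.73% and 8.22% in the shorter lists, 12% without chromosome 15, and 10.3% when 150 bp had to overlap. Shorter lists lower the shares of genes and windows by construction, and wider windows raise the counts at gene ends. The share of regions at gene ends was higher in the shorter lists because it differs by rank, width and chromosome, as the report gives. The CTCF core stayed within 2.86% to 3.43% and the GC box within 70.0% to 70.5% of overlapped windows, and 39 to 45 of 58 groups lay above the background. Groups near the background changed sides. Glycolysis (3.45% against 11.3% in the higher-scored regions) and proteasome genes (8.33% against 11.3%) stood below it in both shorter lists, sulfate transport (11.8%) and lamina genes (8.33%) in the wider regions (12.2%), and F-box genes without chromosome 15 (17.8% against 18.3%), as did glycolysis there and at 0.5 kb. Nuclear receptors (23.9%) and RNA polymerase II subunits (23.1%) stood above it at 2.5 kb (21.1%), and solute carriers without chromosome 15 (18.4%). The regions per 0.5 µM region, 1.29 at 0.1 µM and 1.43 at 1 µM, lay within 1.28 to 1.30 and 1.41 to 1.43 after merging gaps under 200 bp or keeping the higher scores. No paired analysis was possible because each dose has 1 list, and for the same reason no library could be left out. Depth per library is unknown here and limits every statement on sites with no region.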

Other observations

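Genes that start back to back were favoured. Of 3720 promoter windows whose start faced away from another gene's start on the opposite strand within 1 kb, 1163 (31.3%) were overlapped, against 2816 of 28865 others (9.76%). The gap held at like CpG content, with 42.5% against 26.0% at 20 to 29 pairs and 33.3% against 16.9% at 10 to 19, but not at 0 to 4 pairs, where 3 of 339 (0.885%) stood against 1.26%. One region can touch both starts of such a pair. Of 2759 protein-coding genes with more than 1 promoter window, 653 had an overlapped window, 381 at some windows only and 272 at all. Near starts can share a region. Of 957 such genes whose starts all lie 2 kb or more apart, 198 had an overlapped window, 187 at some starts only and 11 at all. Singled out after their values were seen, the genes of best rank with an overlap at some starts only were Slc39a10, a zinc carrier (rank 38), Skp2, an F-box protein of the cell cycle (rank 144), Fer, a tyrosine kinase (rank 171), Egf (rank 189) and Mgmt, which repairs alkylated guanine (rank 247).

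Genes without a protein product had regions at low to moderate rates. tRNA genes had a region within 1 kb in 61 of 408 cases (15%), from 42 distinct regions, with 46 of the genes touched directly. lncRNA genes stood at 7.38%, snoRNA genes at 2.31%, snRNA genes at 2.19%, miRNA genes at 1.87% and pseudogenes at 0.883%. Of 1005 miRNA hairpins 8 were overlapped, led by Mir8114 at an end of Glul (rank 574), Mir7648 (rank 712), Mir1956 at an end of Eif4e (rank 748), Mir6416 in Trpm1 (rank 1580), Mir6352 in Epha4 (rank 4866) and Mirlet7i (chr10:122985475-122985791, rank 7971). Mirlet7i belongs to the let-7 family, which restrains growth genes in many tissues, and it had no region at either other dose. Its mature let-7i-5p, from RefSeq of GRCm38.p6, is shown 5′ to 3′ with the seed (bases 2 to 8) in capitals, a seed that 13 of 1738 mature miRNAs of the table share.
let-7i-5p: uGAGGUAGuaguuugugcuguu

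A few stretches were dense in regions, and they too were singled out after their values were seen. Of 5272 windows of 500 kb, 2359 (44.7%) held no region and 86 held 15 or more, of which 38 lay on chromosome 15. The densest were chr2:167500001-168000000, around Snai1, Cebpb and Ptpn1, with 58 regions (27 at 0.1 µM and 47 at 1 µM), and chr1:132500001-133000000, around Nfasc and Mdm4, with 53 (17 and 23). Next came chr1:83000001-83500000, around Sphkap, with 47 (21 and 40). A window on chromosome 17 at 5500001 to 6000000, around Zdhhc14, Snx9 and Synj2, held 42 (7 and 18). These windows were picked by their 0.5 µM count, so that count standing highest in them is no result. In other dense windows it did not, as at chr15:25500001-26000000, around Myo10 and Retreg1, with 41 regions (44 and 54), and at chr15:25000001-25500000, around Basp1, with 28 (30 and 32).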
